A study of Mus musculus with 36 samples.

Results

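A set of 10 genes of the BMP and TGF-β pathways were followed in cultured intestinal epithelium. They were named with earlier results of these data known and were found in the files by symbol. They are the ligand genes Bmp2, Bmp4, Bmp7, Tgfb1 and Tgfb2, the target genes Id1, Id2 and Id3, and the inhibitory Smad genes Smad6 and Smad7. All 10 symbols matched an Ensembl identifier among the 52636 genes counted, and 8 of the 10 were above the detection limit of 0.5 CPM, a read count scaled to the size of its library. The cultures were organoids grown from jejunal crypts of C57BL/6 mice in IntestiCult, the complete medium, and RNA was taken after 2 days of treatment. The 36 libraries fell into 6 conditions of 6 libraries each, and IgG was given with complete media, QCM, SCM or Wnt5a, whereas anti-Ptk7 was given with SCM or Wnt5a. QCM was conditioned by quiescent (serum-deprived) mouse embryonic fibroblasts and SCM by senescent ones, made so by X-rays or doxorubicin. The conditioned media were collected in serum-free DMEM, filtered, concentrated and mixed with IntestiCult before use. Comparisons of QCM or SCM with complete media include this mixing, which cannot be told apart from fibroblast factors there. Wnt5a, a ligand of noncanonical Wnt signaling, was added to complete medium. Anti-Ptk7 is an antibody against the Wnt coreceptor Ptk7, and cultures without it received IgG. Complete media and QCM were analysed here with IgG alone. The fibroblasts were embryonic, and the organoids held epithelium without its stroma.

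BMP and TGF-β ligands bind paired receptor kinases, which phosphorylate Smad1, Smad5 and Smad9 (BMP branch) or Smad2 and Smad3 (TGF-β branch), and these enter the nucleus with Smad4. Id1, Id2 and Id3 encode helix-loop-helix proteins without a DNA-binding domain and are classical targets of the BMP branch, whereas Smad6 and Smad7 encode inhibitory Smads that are induced by the pathway and act back on its receptors. In the intestine, BMP signaling is high along the villus, where it favours differentiation, and is held low at the crypt base by antagonists from the stroma.

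The total per library lay between 9581589 and 21029769 counts (median 13490071). The libraries were epithelial, with all 6 epithelial markers (Epcam, Cdh1, Vil1, Krt8, Cdx2, Cldn7) tested and a summed level between 5886 and 14330 CPM. None of 8 fibroblast markers passed the expression filter, their summed level lay between 0 and 1.43 CPM in every library, and Col3a1, Dcn and Thy1 had no count in any of the 36. The endothelial markers summed to at most 1.18 CPM and the leukocyte markers to at most 3.88 CPM. SCM + IgG replicate 1 stood apart from its group, with a root mean square log2 distance of 0.826 to the other libraries of the group, against 0.44 to 0.64 for the other SCM + IgG libraries. Members called in SCM against complete media are given with and without it. The first replicates of Wnt5a + IgG and Wnt5a + anti-Ptk7 were also the farthest of their groups, at 0.729 against 0.462 to 0.626 and at 0.683 against 0.451 to 0.527. The organoids came from 6 mice and each condition has 6 numbered replicates, but no label ties a replicate to a mouse, so p values measure the spread between these libraries, which may in part be technical.

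Promoter sequence from RefSeq is shown for 3 of the 6 members with an entry that was used, so that the genes can be compared at their starts. Id1 and Bmp7 had no entry that was used, and Id2 was not called in any comparison below. Each run is read 5′ to 3′ in the direction of the gene from 250 bases before the start of transcription, and annotated exonic bases were left out except for those of a motif that spans the start. The runs of Smad6 and Tgfb1 therefore reach the start, and that of Id2 stops where an annotated exon begins, 161 bases before it. Capitals mark matches to 5 motifs searched on both strands, the palindromic Smad element GTCTAGAC, the GC-rich Smad element GGCGCC, the CAGA element CAGACA, the TEAD element GGAATG and the AP-1 element TGANTCA. The Smad6 run (chr9:64022056-64022309, minus strand, GRCm38.p6) holds the palindromic element from base −4 across the start.
Smad6: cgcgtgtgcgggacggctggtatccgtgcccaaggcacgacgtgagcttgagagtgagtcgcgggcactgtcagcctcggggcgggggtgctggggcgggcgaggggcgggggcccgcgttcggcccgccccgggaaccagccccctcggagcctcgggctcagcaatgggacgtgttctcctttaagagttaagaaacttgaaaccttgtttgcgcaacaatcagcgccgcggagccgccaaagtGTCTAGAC
The Id2 run (chr12:25096254-25096342, minus strand) holds the GC-rich element, at base −231. The RefSeq start used for Id2 lies inside the gene span given with its values, so this run is not upstream of the outermost annotated start.
Id2: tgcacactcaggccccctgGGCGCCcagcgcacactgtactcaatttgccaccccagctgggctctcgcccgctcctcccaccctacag
The window of Id3 lies in annotated exons and is not printed, and it holds a TEAD element at base −203. The Tgfb1 run (chr7:25686752-25687001, plus strand) holds none of the 5 motifs.
Tgfb1: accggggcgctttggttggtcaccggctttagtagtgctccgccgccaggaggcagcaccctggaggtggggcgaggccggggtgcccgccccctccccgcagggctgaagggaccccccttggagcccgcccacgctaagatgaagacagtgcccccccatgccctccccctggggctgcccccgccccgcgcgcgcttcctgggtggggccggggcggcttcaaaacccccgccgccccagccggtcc
Over 32851 RefSeq promoters of 300 bases, 0.213% hold the palindromic Smad element, 11.9% the GC-rich element, 21% the CAGA element, 14.7% the TEAD element and 7.81% the AP-1 element. A match is a run of letters and was not tested for binding.

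Levels of different genes were compared per kilobase of coding length. In complete media, Id2 (56.1 CPM per kb) and Bmp7 (55.4 CPM per kb) were the most abundant members, followed by Id3 (29.2), Id1 (17.3) and Bmp2 (10.9). Smad7 (2.20 CPM per kb), Tgfb1 (0.909) and Smad6 (0.553) were the lowest of the detected members. With exon length in place of coding length, Bmp7 ranked above Id2, Id1 above Id3 and Smad6 above Tgfb1. Bmp4 and Tgfb2 were not detected. Bmp4, a ligand that stromal cells supply in the intestine, had 77 counts over the 36 libraries (mean 0.166 CPM), and 23 libraries had none. Its highest count was 21, in Wnt5a + anti-Ptk7 replicate 1. Tgfb2 had 61 counts (mean 0.133 CPM), 24 libraries had none and its highest count was 12. Neither passed the expression filter, so no fold change is given for either.

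**Figure D1:**
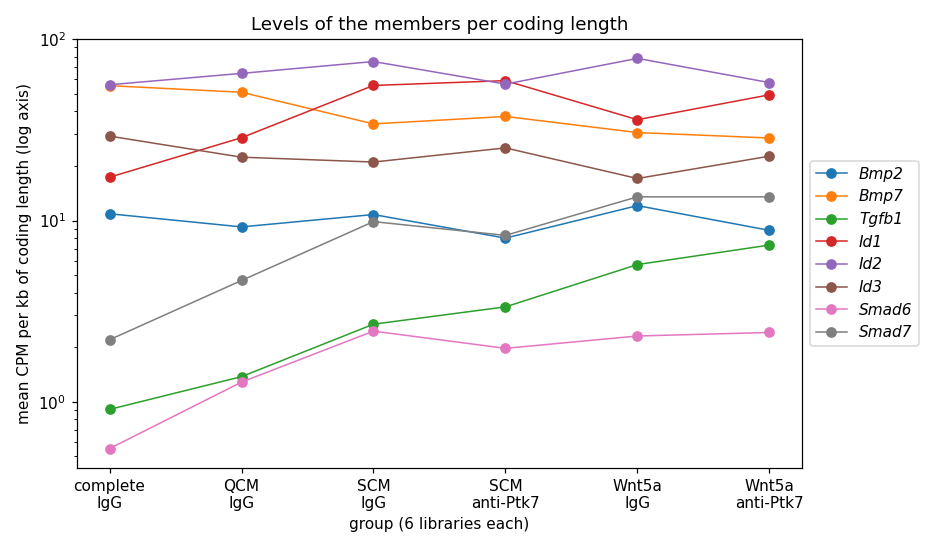
Mean level of the 8 detected members in the 6 groups, in CPM per kb of coding length on a log axis, with lines joining the groups of each gene. Id2 (56.1) and Bmp7 (55.4) are close in complete media, Id1 (55.5) is above Bmp7 (34.1) in SCM, and Smad6 and Tgfb1 are the lowest in complete media.

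Tgfb1, Id1, Smad6 and Smad7 rose in SCM and in Wnt5a. Bmp7 fell in both media, and Id3 fell in Wnt5a. A gene was called when its adjusted p was under 0.05 and its fold change over 1.5 (quasi-likelihood test of edgeR, Benjamini-Hochberg over all 15497 genes tested). SCM against complete media called 4 members higher and 1 lower among the 8 tested, and 6.08% of all genes tested were called (4.96% higher, 1.12% lower). Wnt5a against complete media called 4 higher and 2 lower, where 10.2% of all genes were called (8.29% higher, 1.88% lower). QCM against complete media called 1 member, Id1, and 0.374% of all genes. These comparisons share the complete media libraries, so their values are given side by side without a test of overlap. The median log2 fold change of the 8 members was 0.99 in SCM, 0.77 in Wnt5a and 0.40 in QCM, beside 0.01, 0.01 and 0.02 for all genes tested. SCM against QCM called 1 member (Id1, higher) and 0.903% of all genes. Wnt5a against SCM called 2 (Tgfb1 higher, Id1 lower) and 0.69% of all genes. The all-gene counts behind these shares moved when single libraries were left out. The 942 genes in SCM against complete media became 659 without SCM + IgG replicate 1 and 703 without complete media replicate 3. The 1576 in Wnt5a against complete media became 1169 without Wnt5a + IgG replicate 1. The 58 genes in QCM against complete media became 38 and 37 without complete media replicate 3 or 4. The 140 in SCM against QCM became 35 to 91 without QCM + IgG replicate 2, 3 or 4 or SCM + IgG replicate 1, 5 or 6. The 107 in Wnt5a against SCM became 20 to 67 without SCM + IgG replicate 1, 4 or 6 or Wnt5a + IgG replicate 1 or 5, and 179 without Wnt5a + IgG replicate 2. Wnt5a against QCM called Tgfb1 and Smad7 higher and Bmp7 lower, at log2 differences of 2.04, 1.53 and −0.73, and 9.34% of all genes. Without Wnt5a + IgG replicate 1, the 6 members called in Wnt5a against complete media were called as before, at 2.49 for Tgfb1, 2.32 for Smad7, 2.14 for Smad6, 1.00 for Id1, −0.74 for Bmp7 and −0.88 for Id3. In bulk RNA, a change in the share of cells that express a gene and a change of its RNA per cell cannot be told apart.

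**Figure D2:**
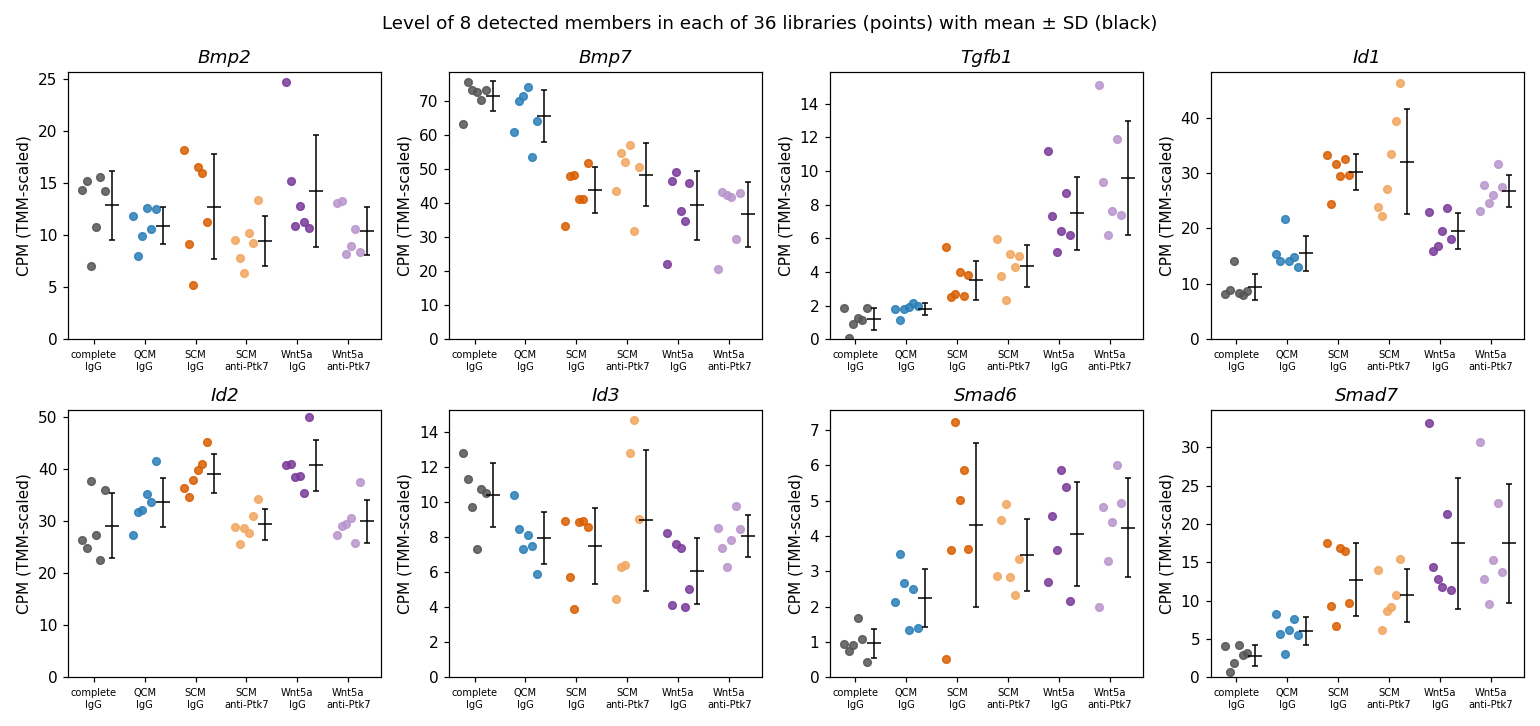
Level of each detected member in every library, in TMM-scaled CPM on linear axes from 0, with points for libraries and black bars for mean ± SD (n = 6). Tgfb1, Id1, Smad6 and Smad7 are lowest in complete media, Bmp7 is highest there, and Id2 is lower with anti-Ptk7 than with IgG in both SCM and Wnt5a.

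**Figure D3:**
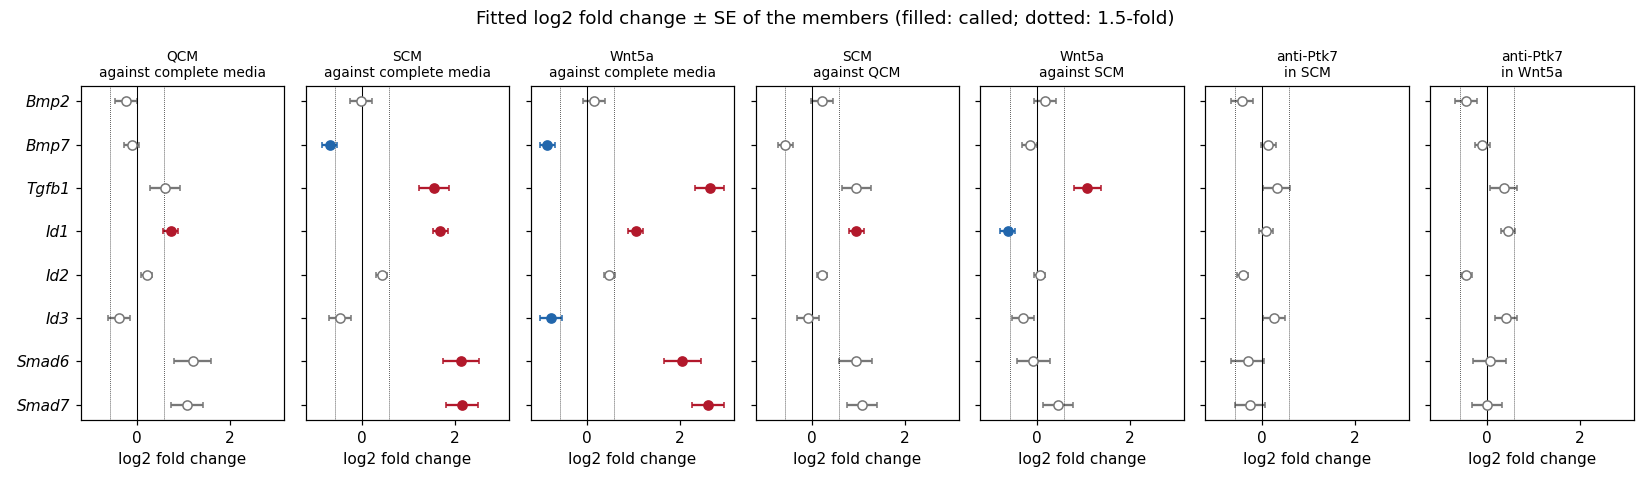
Fitted log2 fold change ± SE of the 8 detected members in 7 comparisons, with filled symbols for called genes (red higher, blue lower) and dotted lines at 1.5-fold. Tgfb1 reaches 2.64 in Wnt5a against complete media, and no symbol is filled in the anti-Ptk7 panels.

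Tgfb1 (ENSMUSG00000002603, chr7:25687002-25705077, plus strand, GRCm38) encodes the latent growth factor TGF-β1. In complete media it lay between 0.0939 and 1.88 CPM (median 1.21), and in QCM between 1.16 and 2.15 CPM (median 1.86). In SCM it lay between 2.51 and 5.46 CPM (median 3.25), above every complete media and every QCM library. In Wnt5a it lay between 5.17 and 11.2 CPM (median 6.86), also clear of the complete media range. Its log2 fold change was 1.55 ± 0.32 (SE) in SCM (2.93-fold, adjusted p = 0.00123) and 2.64 ± 0.32 in Wnt5a (6.22-fold, adjusted p = 3.42e-07). Without SCM + IgG replicate 1, its highest SCM library, the value in SCM was 1.37 (adjusted p = 0.00721). These are low counts, 1 to 25 per library in complete media. In QCM the log2 fold change was 0.60 ± 0.33 (adjusted p = 0.48), which was not called. SCM against QCM gave 0.95 ± 0.31 (adjusted p = 0.0926), also not called. It was 0.79 without SCM + IgG replicate 1 (adjusted p = 0.252). Wnt5a exceeded SCM by 1.09 ± 0.29 on the log2 scale (adjusted p = 0.0365), with 5 of 6 Wnt5a libraries above all SCM libraries. This call was lost without SCM + IgG replicate 2, 3, 4, 5 or 6 or without Wnt5a + IgG replicate 1 or 5, when the difference lay between 0.95 and 1.14 and the adjusted p between 0.0555 and 0.128.

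Bmp7 (ENSMUSG00000008999, chr2:172868012-172940321, minus strand) encodes a BMP ligand and was the most abundant ligand gene among the members. It lay between 63.2 and 75.8 CPM in complete media (median 73.0) and between 53.5 and 74.2 CPM in QCM (median 67.1). In SCM it lay between 33.2 and 51.8 CPM (median 44.7) and in Wnt5a between 22.1 and 49.2 CPM (median 41.9). Every SCM and every Wnt5a library was below every complete media and every QCM library. Against complete media the log2 fold change was −0.70 ± 0.16 in SCM (1.63-fold lower, adjusted p = 0.0033) and −0.86 ± 0.16 in Wnt5a (1.81-fold lower, adjusted p = 0.000211). Without SCM + IgG replicate 1, the lowest of its group, it was −0.64 in SCM (adjusted p = 0.0121). SCM against QCM gave −0.58 ± 0.16 (adjusted p = 0.0537), which was not called. With the replicate number as a block it was −0.59 with an adjusted p of 0.000588 and was called. Without QCM + IgG replicate 5 it was −0.63 with an adjusted p of 0.0385. Without SCM + IgG replicate 1 it was −0.50 with an adjusted p of 0.159.

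Bmp2 (ENSMUSG00000027358, chr2:133552159-133562885, plus strand), a BMP ligand gene, was not called in any comparison. Its levels overlapped between all groups compared. It lay between 7.08 and 15.6 CPM in complete media (median 14.3), between 5.24 and 18.2 CPM in SCM (median 13.6) and between 10.7 and 24.7 CPM in Wnt5a (median 12.1). Its log2 fold change was −0.02 ± 0.24 in SCM (adjusted p = 0.978) and 0.15 ± 0.24 in Wnt5a (adjusted p = 0.721). Of 17 other ligand genes of the family, 7 passed the filter. In SCM, 1 was higher and 1 lower, where 6.08% of all genes were called, and in Wnt5a 1 was higher and 2 lower, where 10.2% were. Bmp8b, a BMP ligand gene, had a mean ± SD over 6 libraries of 22.2 ± 11 CPM in complete media, 52.9 ± 17 CPM with SCM and 68.0 ± 37 CPM with Wnt5a. It rose on the log2 scale by 1.25 ± 0.37 (SE, adjusted p = 0.0228) with SCM and by 1.61 ± 0.37 with Wnt5a (adjusted p = 0.00174). The call in SCM was lost when any of 5 libraries was left out, SCM + IgG replicate 1 or 5 or complete media replicate 2, 3 or 4, with values between 1.06 and 1.19 and adjusted p between 0.0508 and 0.0746. Bmp3, which encodes a member of the family that opposes other BMPs, was lower, with means of 78.4 ± 14 CPM in complete media, 38.3 ± 6.0 CPM with SCM (log2 fold change −1.03 ± 0.20) and 42.8 ± 12 CPM with Wnt5a (−0.87 ± 0.19). Gdf15 was called lower in Wnt5a, at −0.88 ± 0.22 (adjusted p = 0.00297).

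Id1 (ENSMUSG00000042745, chr2:152736251-152737410, plus strand) was called in QCM, SCM and Wnt5a against complete media, in SCM against QCM and in Wnt5a against SCM. It was not called in Wnt5a against QCM (log2 difference 0.33, adjusted p = 0.135). It lay between 8.02 and 14.1 CPM in complete media (median 8.60) and between 13.1 and 21.7 CPM in QCM (median 14.5). In SCM it lay between 24.4 and 33.3 CPM (median 30.6), above every complete media, QCM and Wnt5a library. In Wnt5a it lay between 15.9 and 23.6 CPM (median 18.9), above every complete media library. Relative to complete media, Id1 rose on the log2 scale by 1.68 ± 0.16 in SCM (3.20-fold, adjusted p = 5.1e-09) and by 1.05 ± 0.16 in Wnt5a (2.07-fold, adjusted p = 1.56e-05). Without SCM + IgG replicate 1 it was 1.64 in SCM (adjusted p = 3.49e-08).

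In QCM, Id1 was raised by 0.72 ± 0.16 on the log2 scale (1.65-fold, adjusted p = 0.0218), and 4 of 6 QCM libraries were above all complete media libraries. That call was lost without complete media replicate 1, 2, 4, 5 or 6 or QCM replicate 3 or 5, when the value lay between 0.59 and 0.72 and the adjusted p between 0.051 and 0.127. SCM exceeded QCM by 0.96 ± 0.16 (1.94-fold, adjusted p = 0.000974), and by 0.94 without SCM + IgG replicate 1 (adjusted p = 0.00356). Every library of SCM was above every library of QCM. Wnt5a was below SCM by −0.63 ± 0.16 (1.55-fold lower, adjusted p = 0.0273), with no overlap between their libraries. This last call was lost without SCM + IgG replicate 1, 4 or 6 or without Wnt5a + IgG replicate 1, 2, 3 or 5, when the value lay between −0.69 and −0.58 and the adjusted p between 0.0431 and 0.0817.

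Id2 (ENSMUSG00000020644, chr12:25093799-25097140, minus strand) shifted less than Id1. It lay between 22.5 and 37.7 CPM in complete media (median 26.8), between 34.6 and 45.1 CPM in SCM (median 38.7) and between 35.4 and 49.9 CPM in Wnt5a (median 39.6). Of the 6 libraries, 4 in SCM and 5 in Wnt5a were above all complete media libraries. The log2 fold change was 0.42 ± 0.12 in SCM (1.34-fold, adjusted p = 0.0144) and 0.48 ± 0.12 in Wnt5a (1.40-fold, adjusted p = 0.00267). Both passed the p threshold, which 11.9% of all genes did in SCM and 21.8% in Wnt5a, and stayed under 1.5-fold, so neither was called.

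Id3 (ENSMUSG00000007872, chr4:136143497-136145755, plus strand) went the other way from Id1. It lay between 7.31 and 12.8 CPM in complete media (median 10.6), between 3.90 and 8.96 CPM in SCM (median 8.75) and between 4.00 and 8.28 CPM in Wnt5a (median 6.23). The ranges overlapped in each comparison, and 3 of 6 Wnt5a libraries were below all complete media libraries. The log2 fold change was −0.78 ± 0.24 in Wnt5a (1.72-fold lower, adjusted p = 0.0156), which was called. It was −0.48 ± 0.24 in SCM (adjusted p = 0.202) and −0.39 ± 0.23 in QCM (adjusted p = 0.533), and neither was called.

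Smad6 (ENSMUSG00000036867, chr9:63953076-64022059, minus strand), whose product acts mainly on the BMP branch, lay between 0.443 and 1.68 CPM in complete media (median 0.927). It lay between 1.33 and 3.49 CPM in QCM (median 2.32), and 4 of 6 QCM libraries were above all complete media libraries. In SCM it lay between 0.520 and 7.22 CPM (median 4.32), and in Wnt5a between 2.17 and 5.86 CPM (median 4.09). All Wnt5a libraries and 5 of 6 SCM libraries were above the complete media range, and the exception was SCM + IgG replicate 1, at 0.520 CPM. The log2 fold change was 2.13 ± 0.39 in SCM (4.39-fold, adjusted p = 0.000325) and 2.05 ± 0.39 in Wnt5a (4.14-fold, adjusted p = 0.000239). Without SCM + IgG replicate 1 it was 2.36 in SCM (adjusted p = 8.5e-06). In QCM it was 1.20 ± 0.40 (2.29-fold, adjusted p = 0.173), not called. SCM against QCM gave 0.94 ± 0.36 (adjusted p = 0.168), and 1.19 without SCM + IgG replicate 1 (adjusted p = 0.0668), neither called. Between 6 and 23 reads per library supported the complete media values. Among the members with an entry in the promoter table, Smad6 is the gene whose start carries the palindromic Smad element shown above.

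Smad7 (ENSMUSG00000025880), whose product inhibits both branches, lay between 0.657 and 4.24 CPM in complete media (median 3.10) and between 3.06 and 8.26 CPM in QCM (median 5.90). In SCM it lay between 6.70 and 17.6 CPM (median 13.1) and in Wnt5a between 11.4 and 33.2 CPM (median 13.6). Both ranges were clear of complete media. The log2 fold change was 2.15 ± 0.35 in SCM (4.45-fold, adjusted p = 6.25e-05) and 2.60 ± 0.35 in Wnt5a (6.07-fold, adjusted p = 1.69e-06), and 2.03 in SCM without replicate 1 (adjusted p = 0.000323). In QCM it was 1.07 ± 0.35 (2.11-fold, adjusted p = 0.162), with 5 of 6 QCM libraries above all complete media libraries. SCM exceeded QCM by 1.08 ± 0.33 (adjusted p = 0.074), with 5 of 6 SCM libraries above all of QCM. Neither of these last 2 differences was called, and both were called with the replicate number as a block. Without SCM + IgG replicate 1, SCM exceeded QCM for Smad7 by 0.98 (adjusted p = 0.19).

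With the replicate number as a block, QCM against complete media called 2 members (Id1 and Smad7) and SCM against QCM called 4, namely Id1, Smad7 and Tgfb1 higher and Bmp7 lower. All genes were then called at 1.15% and 3.2%. Smad7 had an adjusted p of 0.00605 in QCM against complete media and 0.0014 in SCM against QCM, and Tgfb1 had 0.0189 in the latter. In 2 further pairs of groups, Smad7 was then called higher in SCM + anti-Ptk7 than in QCM (log2 difference 0.85, adjusted p = 0.00812, and 0.107 without the block), and Smad7 and Tgfb1 were called higher in Wnt5a + IgG than in SCM + anti-Ptk7 (0.66 and 0.79, adjusted p = 0.0314 and 0.0191, and 0.16 and 0.0842 without it). The block changed no other member call in the 15 pairwise comparisons of groups.

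In the antibody comparisons no member was called, in SCM among 1.23% of all genes called and in Wnt5a among 0.884%. With 1 library left out, the 190 genes called in SCM became 105 without SCM + IgG replicate 1 and 122 without SCM + anti-Ptk7 replicate 2, and the 137 in Wnt5a became 81 without Wnt5a + anti-Ptk7 replicate 5. At an unadjusted p under 0.05 there was 1 of 8 members in SCM (Id2), beside 17.1% of all genes, and 2 in Wnt5a (Id1 and Id2), beside 15% of all genes. Id2 had lower levels with anti-Ptk7 in both media, and so had Bmp2, at log2 differences of −0.43 ± 0.24 in SCM (adjusted p = 0.363) and −0.45 ± 0.24 in Wnt5a (adjusted p = 0.379), where 4 of 6 antibody libraries were below every IgG library. For Id2 in SCM the antibody libraries lay between 25.5 and 34.3 CPM (median 28.8), below every IgG library. In Wnt5a it lay between 25.7 and 37.5 CPM with the antibody (median 29.2), and 5 of 6 libraries were below every IgG library. The log2 difference of Id2 was −0.41 ± 0.12 in SCM (1.33-fold lower, adjusted p = 0.0463) and −0.44 ± 0.12 in Wnt5a (1.36-fold lower, adjusted p = 0.0301). The adjusted p passed the threshold in both, which 2.72% of all genes did in SCM and 2.57% in Wnt5a, but the fold change was under 1.5. Left-out libraries moved the adjusted p between 0.0346 and 0.111 in SCM and between 0.0142 and 0.101 in Wnt5a, and it was 0.0709 in SCM without SCM + IgG replicate 1, and in Wnt5a 0.0451 without Wnt5a + IgG replicate 1 and 0.0631 without Wnt5a + anti-Ptk7 replicate 1. The mean Id2 level with the antibody, 29.3 CPM in SCM and 29.9 in Wnt5a, stood beside 29.1 CPM in complete media + IgG.

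Against complete media + IgG, which had no antibody control of its own, SCM + anti-Ptk7 called Id1, Smad6, Smad7 and Tgfb1 higher, where 5.86% of all genes were called. Wnt5a + anti-Ptk7 called the same 4 genes higher and Bmp7 lower, where 14.5% of all genes were called. The log2 fold change of Tgfb1 was 1.86 ± 0.32 in the former (adjusted p = 0.000108) and 2.99 ± 0.32 in the latter (adjusted p = 1.51e-08). Bmp7 in SCM + anti-Ptk7 was at −0.56 ± 0.16 (adjusted p = 0.0177), under 1.5-fold. Smad7 had a mean of 17.5 CPM in Wnt5a with either IgG or anti-Ptk7, and its log2 difference was 0.00 ± 0.31 (adjusted p = 0.998). In SCM the mean of Smad7 was 12.8 ± 4.7 CPM (SD, n = 6) with IgG and 10.7 ± 3.5 with the antibody. Id1 in Wnt5a was 19.5 ± 3.2 CPM with IgG and 26.8 ± 2.9 with the antibody. That log2 difference was 0.46 ± 0.16 (adjusted p = 0.114), and 5 of 6 antibody libraries were above every IgG library. Id1 in SCM differed by 0.09 ± 0.16 (adjusted p = 0.829). The antibody effect in Wnt5a less that in SCM was called for 0 of 8 members and for 0% of all genes (edgeR), with adjusted p of 0.999 for each member and 0 members at an unadjusted p under 0.05, which 3.88% of all genes had. DESeq2 also called 0 members.

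Over the 6 groups, each detected member was ordered by its mean CPM, and neighbours in that order were compared. Only 1 of 40 such neighbouring steps was called, Id1 in QCM over complete media, and with the replicate number as a block 5 of 40 were. Smad6 ran from 0.97 CPM in complete media through 2.26 in QCM, 3.46 in SCM + anti-Ptk7, 4.05 in Wnt5a and 4.24 in Wnt5a + anti-Ptk7 to 4.31 in SCM. Tgfb1 ran from 1.19 CPM in complete media through 1.81 in QCM, 3.51 in SCM, 4.38 in SCM + anti-Ptk7 and 7.49 in Wnt5a to 9.59 in Wnt5a + anti-Ptk7. Complete media was the lowest group for Id1, Id2, Smad6, Smad7 and Tgfb1, and the highest for Bmp7 and Id3.

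Co-variation from library to library was examined for 5 response genes. Over the 36 libraries, with group means removed, 0 of 10 pairs among Id1, Id2, Id3, Smad6 and Smad7 passed after adjustment over the 10 pairs. The closest was Id1 with Id3 (Pearson r = 0.36, permutation p = 0.0874, adjusted p = 0.443, and Spearman rho = 0.395, permutation p = 0.0426, adjusted p = 0.344). Without the 2 libraries farthest from the median of Id1, r was 0.433. Smad6 with Smad7 had r = −0.184 (permutation p = 0.319, adjusted p = 0.532) and rho = −0.133 (permutation p = 0.468, adjusted p = 0.746), and r was −0.0039 without the 2 farthest libraries.

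Over all 36 libraries, differences between groups included, the genes whose log2 CPM followed a called member most closely were found by Pearson correlation, given as a description. For Id1 they were Fcgrt (r = 0.900), which encodes the neonatal Fc receptor, Paqr7 and Lypd8. For Smad7 they were Foxq1 (0.931), a forkhead transcription factor gene, Lama3, a laminin chain gene, and the antisense gene Gm37885. For Tgfb1 they were P2rx2 (0.920), Pthlh, which encodes parathyroid hormone-like hormone, and Paqr5. Bmp7 was followed by Aldh1b1 (0.937), Engase and Cth, and Id3 by the antisense gene Gm10550 (0.685), Bag1 and Preb.

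Other genes of the pathway were read from lists by role, and the counts below stand beside 6.08% of all genes called in SCM, 10.2% in Wnt5a and 0.374% in QCM. Of 12 receptor genes tested (15 listed), 1 was higher in SCM, a share near that of all genes, and 3 were higher and 1 lower in Wnt5a. Acvr1, a type I receptor gene, had a log2 fold change of 1.11 ± 0.25 in SCM (adjusted p = 0.0027) and 1.47 ± 0.25 in Wnt5a (adjusted p = 6.18e-05). Bmpr2, the BMP type II receptor gene, rose by 0.87 ± 0.21 in Wnt5a (adjusted p = 0.00274). Tgfbr2, the TGF-β type II receptor gene, rose by 0.59 ± 0.15 in Wnt5a, at the limit of 1.5-fold, and its call was lost without complete media replicate 3, 4 or 6 or Wnt5a + IgG replicate 1 or 5, when it lay between 0.47 and 0.56. Tgfbr3, the betaglycan coreceptor gene, had a mean of 1.65 CPM in complete media and no count in any Wnt5a + IgG library, which makes it at least 7.61-fold lower at a floor of 3 counts per library. Its mean was 0.26 CPM in QCM + IgG, 0.50 CPM in SCM + IgG, 0.29 CPM in SCM + anti-Ptk7 and 0.51 CPM in Wnt5a + anti-Ptk7. Tgfbr3 was thus near the floor in every group other than complete media. Of 5 Smad genes tested (6 listed), Smad3 was called, higher in Wnt5a by 0.66 ± 0.14 (adjusted p = 0.000828), and by 0.55, under 1.5-fold, without Wnt5a + IgG replicate 1.

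Of 22 genes for extracellular antagonists and for proteins that hold or release latent TGF-β, 11 were tested, and 6 were higher in SCM and 7 in Wnt5a, with 0 lower in either. Their median log2 fold change was 1.69 in SCM and 1.95 in Wnt5a, beside 0.01 for all genes in each. In complete media, Fst, Fstl1, Itgb8 and Ltbp4 averaged 0.41, 0.035, 0.295 and 0.45 CPM. They passed the filter through libraries of other groups and had little room to be called lower. The counts, the 0 lower and the medians of this list therefore lean upward and only describe it. Thbs1, whose product can activate latent TGF-β, lay between 12.8 and 33.5 CPM in complete media, between 51.3 and 97.2 CPM in SCM and between 113 and 267 CPM in Wnt5a. Thbs1 rose on the log2 scale by 1.84 ± 0.30 in SCM (adjusted p = 6.3e-05) and by 2.97 ± 0.31 in Wnt5a (adjusted p = 1.44e-08), and the 3 ranges did not overlap. Itgb8, an integrin gene for a receptor of latent TGF-β, rose by 2.79 ± 0.86 in SCM (adjusted p = 0.0302) and 3.49 ± 0.86 in Wnt5a (adjusted p = 0.00315), from a mean of 0.295 CPM in complete media. Since 2 complete media libraries had no count of Itgb8, these folds rest on few counts. Its call in SCM was lost without complete media replicate 2, 4, 5 or 6 or SCM + IgG replicate 6, with adjusted p between 0.0506 and 0.0692. Without complete media replicate 3, the value of Itgb8 was 3.69 in SCM (adjusted p = 0.0151) and 4.4 in Wnt5a (adjusted p = 0.00166). Ltbp4, a latent TGF-β binding protein gene, rose by 2.92 ± 0.75 in Wnt5a (adjusted p = 0.00455), from 0.45 to 3.53 CPM. Fstl1, a follistatin-like gene, was at 0 in 5 of 6 complete media libraries and had means of 0.998 CPM in SCM and 2.42 CPM in Wnt5a. It was called higher in both, and no fold is given because the control level rests on 1 library. Nbl1 and Itgb6 were also higher in both media, Fst in SCM and Itgav in Wnt5a. The calls of Fst and Nbl1 in SCM were lost without SCM + IgG replicate 1, at 2.01 (adjusted p = 0.108) and 1.33 (adjusted p = 0.0806), and Fst was at 3.37 without complete media replicate 5.

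**Figure D4:**
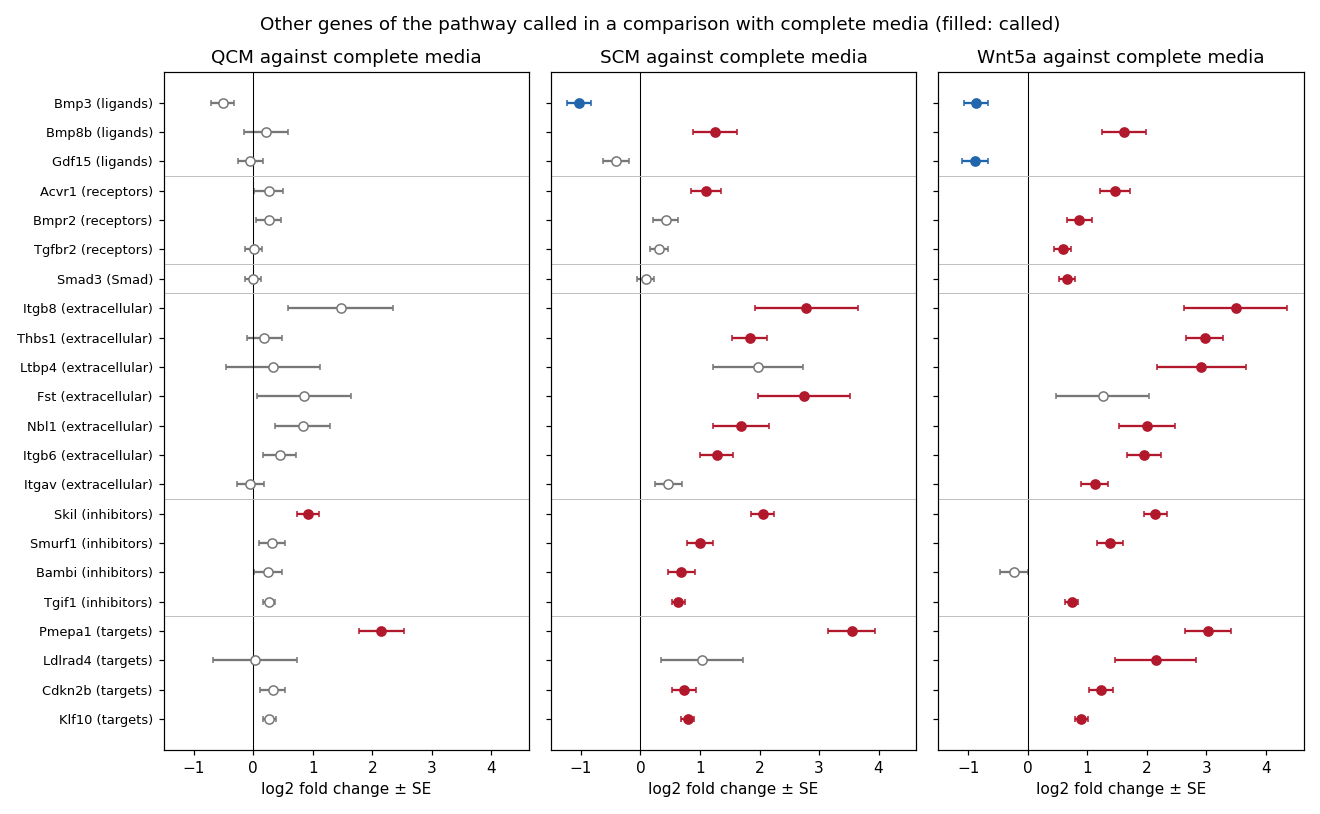
Fitted log2 fold change ± SE against complete media of other pathway genes called in at least 1 comparison, grouped by role, with filled symbols for called genes (red higher, blue lower). Tgfbr3 and Fstl1 are left out because a group is at or near 0 counts. Pmepa1 reaches 3.55 in SCM, Skil is called in all 3 media, and Bmp3 is called lower in SCM and Wnt5a.

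All 9 intracellular inhibitor genes were tested, and 1 was higher in QCM, 4 in SCM and 3 in Wnt5a. Skil, which encodes the corepressor SnoN, had means ± SD over 6 libraries of 14.2 ± 3.3 CPM in complete media, 27 ± 2.8 CPM in QCM, 59.2 ± 7.1 CPM in SCM and 63.0 ± 20 CPM in Wnt5a. Its log2 fold changes were 0.92 ± 0.19 in QCM (SE, adjusted p = 0.0088), 2.05 ± 0.19 in SCM (adjusted p = 2.08e-09) and 2.14 ± 0.19 in Wnt5a (adjusted p = 6.7e-10). Smurf1, a ubiquitin ligase gene, rose by 1.00 ± 0.22 in SCM and 1.38 ± 0.22 in Wnt5a, and Tgif1, a corepressor gene, by 0.64 ± 0.11 and 0.74 ± 0.11. The call of Tgif1 in SCM was lost without complete media replicate 3, when it was 0.58. Bambi, a pseudoreceptor gene, was higher in SCM by 0.69 ± 0.23 (adjusted p = 0.0458) and lower in Wnt5a than in SCM by −0.91 ± 0.23 (adjusted p = 0.0289). Both Bambi calls depended on single libraries, 8 for the first (adjusted p between 0.0554 and 0.126 without 1 of them) and 5 for the second (between 0.0526 and 0.1).

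Of 13 further targets, 9 were tested, and 1 was higher in QCM, 3 in SCM and 4 in Wnt5a, with 0 lower in any of these. Pmepa1, a TGF-β target whose product dampens the pathway, lay between 6.66 and 15.2 CPM in complete media, between 35.2 and 73.4 CPM in QCM, between 57.0 and 213 CPM in SCM and between 48.3 and 224 CPM in Wnt5a. All 3 treated ranges were clear of complete media. Its log2 fold changes were 2.15 ± 0.38 in QCM (adjusted p = 0.00182), 3.55 ± 0.39 in SCM (adjusted p = 7.98e-08) and 3.03 ± 0.39 in Wnt5a (adjusted p = 6.88e-07). SCM exceeded QCM for Pmepa1 by 1.39 ± 0.35 (adjusted p = 0.0332), a call lost without QCM + IgG replicate 2, 3 or 4 or SCM + IgG replicate 1, 5 or 6, with values between 1.18 and 1.40 and adjusted p between 0.0508 and 0.123. Klf10, a TGF-β-induced transcription factor gene, rose by 0.79 ± 0.11 in SCM and 0.90 ± 0.11 in Wnt5a. Cdkn2b, which encodes the cell cycle inhibitor p15, rose by 0.73 ± 0.20 in SCM (adjusted p = 0.0147, and 0.0525 without complete media replicate 3) and by 1.23 ± 0.20 in Wnt5a (adjusted p = 4.13e-05). Ldlrad4 rose in Wnt5a by 2.15 ± 0.68 (adjusted p = 0.0206), and by 1.90 without Wnt5a + IgG replicate 5 (adjusted p = 0.0577). Its complete media mean was 0.68 CPM, and 2 libraries there had no count.

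SCM against QCM called 3 of 53 wider genes, all higher (Thbs1, Skil and Pmepa1), or 5.66%, beside 0.903% of all genes. Wnt5a against SCM called Thbs1 higher and Tgfbr3 and Bambi lower, also 5.66%, beside 0.69% of all genes. In that comparison the Thbs1 call was lost without any 1 of 4 libraries (adjusted p between 0.0517 and 0.102). The Tgfbr3 call was lost without any 1 of 10 (between 0.0567 and 0.111). Of the wider lists, the antibody comparisons called 1 of 53 genes tested in each medium, or 1.89%, a share near that of all genes (1.23% in SCM and 0.884% in Wnt5a). Thbs1 fell with anti-Ptk7 in SCM, from 78.3 ± 21 to 36.8 ± 7.1 CPM (SD, n = 6), a log2 difference of −1.09 ± 0.29 (SE, adjusted p = 0.0325). The call was lost when any of 7 libraries was left out, replicates 4, 5 and 6 with IgG and replicates 2, 3, 5 and 6 with the antibody, with values between −1.14 and −1.02 and adjusted p between 0.0536 and 0.0733. In Wnt5a it was 172 ± 66 CPM with IgG and 108 ± 59 with the antibody, a log2 difference of −0.68 (adjusted p = 0.223), and it was called without Wnt5a + anti-Ptk7 replicate 1, at −0.97 (adjusted p = 0.0481). Bmp8b in SCM was called lower with the antibody without SCM + anti-Ptk7 replicate 1, at −1.28 (adjusted p = 0.0458). Tgfbr3 was called higher with the antibody in Wnt5a from no count to a mean of 0.51 CPM, with an adjusted p of 0.0464, and the call was lost when any of 11 libraries was left out (adjusted p between 0.0526 and 0.083).

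Some markers of epithelial cell types were called in comparisons that called members, and some in the antibody comparisons, where no member was called. Against complete media, 0.374% of all genes were called in QCM, 6.08% in SCM and 10.2% in Wnt5a. Of the 6 general epithelial markers, Krt8 was higher in SCM, and Krt8 and Cdh1 were higher in Wnt5a. The summed level of the 6 averaged 6262 CPM in complete media, 7091 CPM with QCM, 8363 CPM with SCM and 8921 CPM with Wnt5a. In QCM the sum lay between 6676 and 7392 CPM, above the 5886 to 6613 CPM of complete media, and none of the 6 was called. Of 6 enterocyte markers, 3 were higher in QCM, 4 higher and 1 lower in SCM, and 3 higher in Wnt5a. Their summed level lay between 1050 and 1804 CPM in complete media, between 1533 and 1994 in QCM, between 1680 and 2327 in SCM and between 1089 and 1963 in Wnt5a. Of 4 crypt base stem cell markers, Smoc2 was lower in SCM and in Wnt5a and Lgr5, Olfm4 and Ascl2 were not called. The summed stem cell markers lay between 1594 and 2205 CPM in complete media, between 1491 and 2161 in QCM, between 1024 and 1866 in SCM and between 901 and 1999 in Wnt5a. Of 3 Paneth cell markers, Mmp7 was higher in SCM and in Wnt5a. The summed level of the 3 lay between 1327 and 1568 CPM in complete media, between 1522 and 2160 in QCM, between 1412 and 1974 in SCM and between 766 and 1594 in Wnt5a. None of 4 goblet cell markers was called in these comparisons. In the 2 further comparisons of media that called Id1, Mmp7 was higher in SCM than in QCM by 0.68 on the log2 scale (adjusted p = 0.022), and the enterocyte marker Apoa1 was lower in Wnt5a than in SCM, at −0.76 (adjusted p = 0.0123). In the antibody comparisons, Alpi was lower in both media and Lyz1 lower in Wnt5a. The part of these cell type markers in the levels of the members was not tested.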

How the data were processed

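RNA of 36 organoid libraries was made into cDNA with the Smart-Seq V4 Ultra Low Input kit and Nextera XT and sequenced single-end. The authors aligned the reads with GSNAP (in the HTSeqGenie pipeline) to mm10 and deposited raw counts of reads within coding sequences per Ensembl gene. The annotation release and the use of strand are not given in the sources used here. Low-input amplification without molecular identifiers means that reads are not independent molecules.

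Counts were fitted in edgeR 4.0.16 (R 4.3.3) with filterByExpr by group, TMM scaling (factors 0.908 to 1.03) and 6 group means over all 36 libraries, which left 15497 of 52636 genes. The quasi-likelihood test was adjusted by Benjamini-Hochberg over these genes, with calls made below 0.05 where the fold change also exceeded 1.5. Levels are TMM-scaled CPM, and log2 CPM for correlations had 2 as the prior count. Within-group correlations were tested with 100000 permutations of libraries within groups (numpy 2.4.6, scipy 1.17.1). The fits were also run on simulated counts, and that outcome is not reported here. The study's methods name voom with limma, which was run as an alternative (limma 3.58.1), as were DESeq2 1.42.0, other scalings, filters and fold limits, fits of only the groups compared, and each library left out in turn.

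The series numbers its 6 mice and the labels number 6 replicates per condition. The replicate number was therefore taken as the mouse for a blocked fit, although no label states this. Of 90 pairs of libraries with the same number, 34 had a correlation of deviations from the group means over 0.1 (mean 0.092, against −0.018 for different numbers).

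The members and gene lists were chosen with earlier results of these data known. All members are named, as are other pathway genes that were called, with values for at most 4 per list by size of change, and the 3 genes most correlated with each called member, except that this result for Smad6 is not reported here. Promoters are from RefSeq (GRCm38.p6), and 6 members had an entry that was used. Gene positions are on GRCm38, the assembly of mm10.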

Additional observations from a re-analysis of the deposited data

Results flagged for a closer look

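In 5 of 48 groups of 6 libraries (8 members in 6 groups), the highest or lowest library lay farther from the others than Dixon's critical ratio for groups of that size allows on the log2 CPM scale, and chance flags about 1 in 20 groups. Id1 was at 14.08 CPM in complete media replicate 3, where the other libraries of that group lay between 8.02 and 8.92 CPM. Id1 was at 21.748 CPM in QCM replicate 3, where the others lay between 13.1 and 15.4 CPM. Smad6 was at 0.52044 CPM in SCM + IgG replicate 1, where the others lay between 3.60 and 7.22 CPM. Tgfb1 was at 0.093922 CPM in complete media replicate 2, which is 1 read, where the others lay between 0.916 and 1.88 CPM. Tgfb1 was at 1.1647 CPM in QCM replicate 2, where the others lay between 1.82 and 2.15 CPM. On unlogged CPM, Smad6 in SCM + IgG and Tgfb1 in complete media had ratios of 0.46 and 0.461, under the critical ratio, and the other 3 groups stayed above it.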

How the results depend on the processing

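Of 1477 fold changes of members under the alternatives, 1433 kept their side of the threshold, 31 lost a call and 13 gained one, and 0 called values reversed, while 50 of the 1433, none of them called, had another sign. Against complete media, the 5 members called in SCM and the 6 in Wnt5a were the same genes with voom, DESeq2, either other scaling, no filter on low counts, the replicate block, only the groups compared and each library left out. With no fold-change cutoff Id2 was added to both (6 and 7 members), and at a fold change over 2 both called 4, without Bmp7 and, in Wnt5a, Id3. With at least 10 counts required in every library they called 2 and 3, since Smad6, Smad7 and Tgfb1 were then not tested, and Wnt5a against SCM called 1. QCM against complete media called 0 members at a fold change over 2, with voom or with only the groups compared, and 2 with the replicate block. SCM against QCM called 0 at a fold change over 2, 2 with voom or with only the groups compared, 3 with DESeq2 and 4 with the replicate block. Wnt5a against SCM called 1 at a fold change over 2, with DESeq2, with no filter on low counts or with only the groups compared. With no fold-change cutoff, anti-Ptk7 called 1 member (Id2) in SCM and 1 in Wnt5a. With the replicate block, 5 of 40 neighbouring levels differed, and the member calls it changed are the 7 given in the report among the 15 pairwise comparisons. With 1 library left out, the counts ranged from 0 to 1 in QCM, 5 to 5 in SCM and 6 to 6 in Wnt5a against complete media, 1 to 2 in SCM against QCM, 0 to 2 in Wnt5a against SCM and 0 to 0 for the antibody. No scaling moved the median log2 fold change of all genes by over 0.1. Depth limits Smad6 and Tgfb1 in complete media, where single libraries held as few as 6 and 1 reads, and intervals from these fits do not cover amplification.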
